A study of Mus musculus with 4 samples.

Results

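Transcripts that enter brain tissue with blood cells were examined in the globus pallidus of mice that had received cocaine or saline. They comprise the adult globin genes Hba-a1, Hba-a2, Hbb-b1 and Hbb-b2, the erythroid heme enzyme gene Alas2, and the neutrophil genes S100a8, S100a9, Camp and Ngp. A gene counted as measured when the platform annotation gave a probe its symbol and no other. Of the 9 listed genes 7 were measured, out of 19087 genes with such a probe, and each had 1 spot. Hbb-b1 and Hbb-b2 had no probe under those symbols, and the beta globin probes of the array carry the symbol Hbb-bt, so Hbb-bt is described beside the members. Only Hba-a1, Hba-a2, Alas2 and S100a9 gave a signal above the background limit used here. The label of a blood origin was not tested, since these values are ratios and globin transcripts are also known in some neurons and glia.

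Each of 4 arrays set a cocaine mouse against a saline mouse, all male and of the C57BL6 background. The cocaine mice were given 15 mg/kg on days 2, 3 and 4 of a conditioned place preference protocol, in which an animal learns to link a compartment with a drug, and had a low preference score. The saline mice were given saline on the same days. Arrays 1 and 3 carried cocaine RNA in Cy5, arrays 2 and 4 carried it in Cy3, and cocaine cannot be told apart from the low score. The values deposited by the authors are log2 ratios, with medians between -0.56 and 0.49, and which treatment was the numerator is not stated. Arrays 1 and 2, of opposite orientation, correlated at -0.83 over 45018 spots, and the other such combinations lay between -0.90 and -0.96, so the authors had likely turned the columns to 1 treatment direction. That this direction is cocaine over saline is likely from the order in which the design text names the treatments, and "higher" or "lower" reverses throughout if it was saline over cocaine. The number of arrays limits the precision, and a change in the number of blood cells cannot be told apart from a change in RNA per cell.

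Adult haemoglobin joins alpha chains, encoded by the neighbouring and nearly identical genes Hba-a1 and Hba-a2, with beta chains from the Hbb locus. Maturing red cells make it in bulk, and Alas2 supplies the rate-limiting step of their heme synthesis. GATA1 and KLF1 are the main activators of these genes, through GATA and CACCC elements. S100a8 and S100a9 form calprotectin, a calcium-binding protein abundant in neutrophils and monocytes, whereas Camp and Ngp encode granule proteins of developing neutrophils. Brain dissected without clearing its vessels keeps red and white blood cells in them.

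The 250 bases before the annotated start are shown for the genes on which the values turn, 3 of the red cell programme and 1 of the neutrophil programme, so that their elements can be compared. They come from RefSeq, build GRCm38.p6, with promoters matched for 7 of 7 measured members. Hba-a1 lies at chr11:32283422-32283671 on the plus strand, Hbb-bt at chr7:103813924-103814173 on the minus strand, Alas2 at chrX:150547167-150547416 on the plus strand and S100a9 at chr3:90695722-90695971 on the minus strand. Capitals mark matches on either strand to GATAA (the GATA core), to the CACCC box, to the CCAAT box, to TATAA (the TATA box) or to TTNNGNAA, a loose form of the C/EBP motif of myeloid genes. Matches may overlap, as with both TATAA matches of Alas2.
Hba-a1: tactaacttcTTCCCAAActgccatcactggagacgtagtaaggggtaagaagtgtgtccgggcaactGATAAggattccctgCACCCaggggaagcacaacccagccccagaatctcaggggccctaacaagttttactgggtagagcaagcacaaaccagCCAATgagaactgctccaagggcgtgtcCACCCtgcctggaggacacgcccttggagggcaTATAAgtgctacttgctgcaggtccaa
Hbb-bt: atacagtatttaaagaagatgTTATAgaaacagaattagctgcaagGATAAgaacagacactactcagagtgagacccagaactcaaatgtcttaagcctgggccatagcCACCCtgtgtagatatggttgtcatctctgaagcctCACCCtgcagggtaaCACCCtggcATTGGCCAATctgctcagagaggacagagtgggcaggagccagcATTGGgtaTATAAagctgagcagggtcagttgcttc
Alas2: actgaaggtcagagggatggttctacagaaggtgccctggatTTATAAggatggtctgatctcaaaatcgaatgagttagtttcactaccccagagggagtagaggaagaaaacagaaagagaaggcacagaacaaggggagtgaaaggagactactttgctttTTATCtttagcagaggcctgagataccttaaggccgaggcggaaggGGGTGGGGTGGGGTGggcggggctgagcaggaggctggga
S100a9: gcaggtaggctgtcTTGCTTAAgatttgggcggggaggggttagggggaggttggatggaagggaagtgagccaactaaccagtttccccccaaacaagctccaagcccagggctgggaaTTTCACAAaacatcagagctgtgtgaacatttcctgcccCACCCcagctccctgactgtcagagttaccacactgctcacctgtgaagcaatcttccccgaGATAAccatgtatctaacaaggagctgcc

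GATAA and CACCC occurred together in the red cell promoters shown and also in S100a9. Hba-a1, Hbb-bt and Alas2 each held 1 GATAA match, and 2, 3 and 3 CACCC matches in the order named. Both motifs together occurred in 10.1% of 32851 promoters of the same length, GATAA alone in 22.6% and CACCC in 52.0%. The globins also had CCAAT, found in 33.8% of promoters, and a TATAA match that began 27 bases before the start in Hba-a1 and 28 bases before it in Hbb-bt, a motif in 22.8% of promoters. S100a9 held 1 GATAA, 1 CACCC and 2 TTNNGNAA matches, and the last of these motifs occurred in 36.8% of promoters. Hba-a2 is not shown because its promoter window is identical to that of Hba-a1 at 297 of 297 overlapping bases, set 3 bases apart. By contrast Hbb-bt matched its neighbour Hbb-bs at 56.2% of 299 bases. These comparisons used the best single shift and no gaps, so an inserted or lost base lowers the share. Hba-a1 and Hbb-bt, compared in the same way, matched at 31.0% of 297 bases. These matches are descriptions of letters and were not tested for function.

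**Figure D1:**
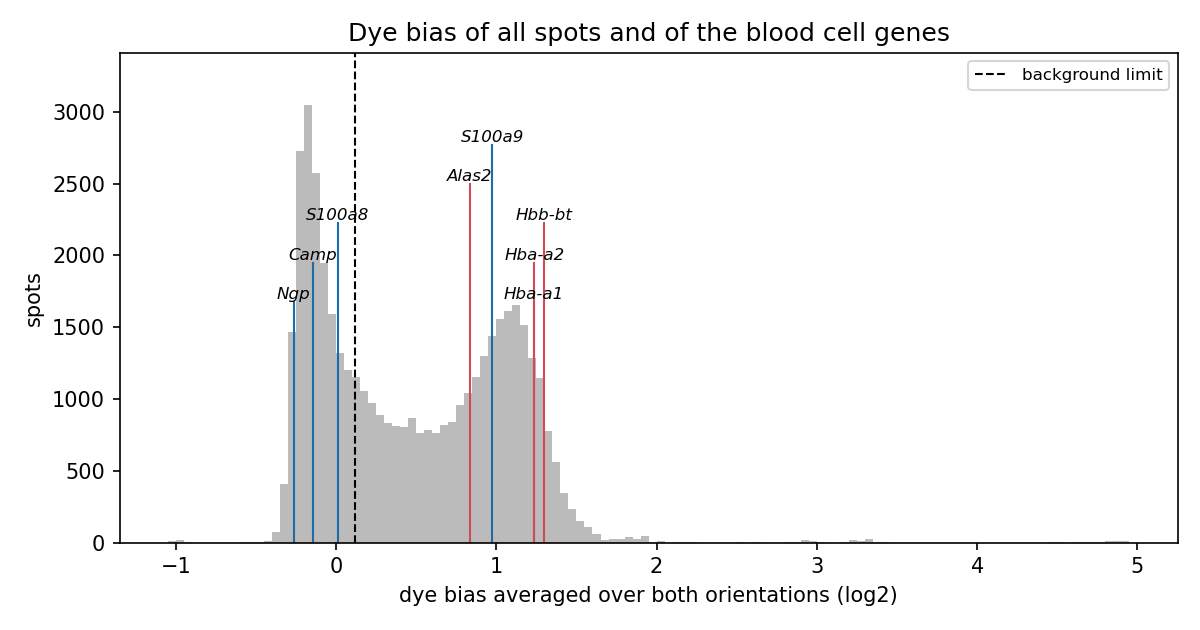
Histogram of the dye bias of each spot averaged over both orientations (log2, x axis) against the number of spots (y axis), with vertical lines at the blood cell genes (red for red cell genes, blue for neutrophil genes) and a dashed line at the background limit of 0.119. Hba-a1, Hba-a2, Hbb-bt, Alas2 and S100a9 lie in the right-hand mode, and S100a8, Camp and Ngp lie left of the limit.

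The ratios carry a dye bias that was assumed to grow with brightness, which was not tested because no intensities were used. Its average over both orientations, in which the treatment cancels, stood in for a signal level, and each call of above background rests on that assumption. A spot counted as above background when this average exceeded 0.119 (log2), a limit placed 3 SDs beyond the mode, and 72.5% of genes had such a spot. A gene counted as above background if any of its spots did, whereas its ratio averages all its spots. Hba-a1 had an averaged bias of 1.23, Hba-a2 of 1.24 and Hbb-bt of 1.29, with Alas2 at 0.834 and S100a9 at 0.975. S100a8 had 0.0105, Camp -0.144 and Ngp -0.263. By this limit the red cell genes had a signal, and of the neutrophil members only S100a9 did. Camp, Ngp and S100a8 were not well above background, and their ratios give no direction. Of 16 pallidal neuron markers measured, among them Gad1 and Pvalb, 15 were above the limit.

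The alpha globin genes were lower in cocaine mice on average and uneven between mice. After normalization Hba-a1 had log2 ratios of -0.28, -0.65, -0.34 and 0.03 on arrays 1 to 4. Hba-a2 had -0.30, -0.61, -0.30 and -0.0007. Array 2 was the lowest and array 4 lay at about 0 for both. The mean was -0.31 (SE 0.11, n = 4 arrays) for Hba-a1 and -0.30 (SE 0.10) for Hba-a2, 1.24-fold and 1.23-fold lower. Their spots differed by at most 0.042 on any array, and near-identical transcripts cannot be told apart by hybridization, so they count as 1 measurement of alpha globin. By limma the unadjusted p was 0.0417 for Hba-a1 and 0.0320 for Hba-a2, and the adjusted p over 30452 features was 0.999 for both. The means therefore did not pass the test. The adjusted p was under 0.05 in 0 features, 0% of those tested. An unadjusted p under 0.05 was reached by 3 of 7 measured members, against 1.52% of all genes, and 2 of these 3 are the alpha globins. The members were chosen with earlier results of these data known, so this share is a description and no support. Without array 2 the mean was -0.13 for Hba-a1 and -0.14 for Hba-a2. In that fit array 4 weighs as much as arrays 1 and 3 together, so the part of array 2 alone cannot be read from it.

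**Figure D2:**
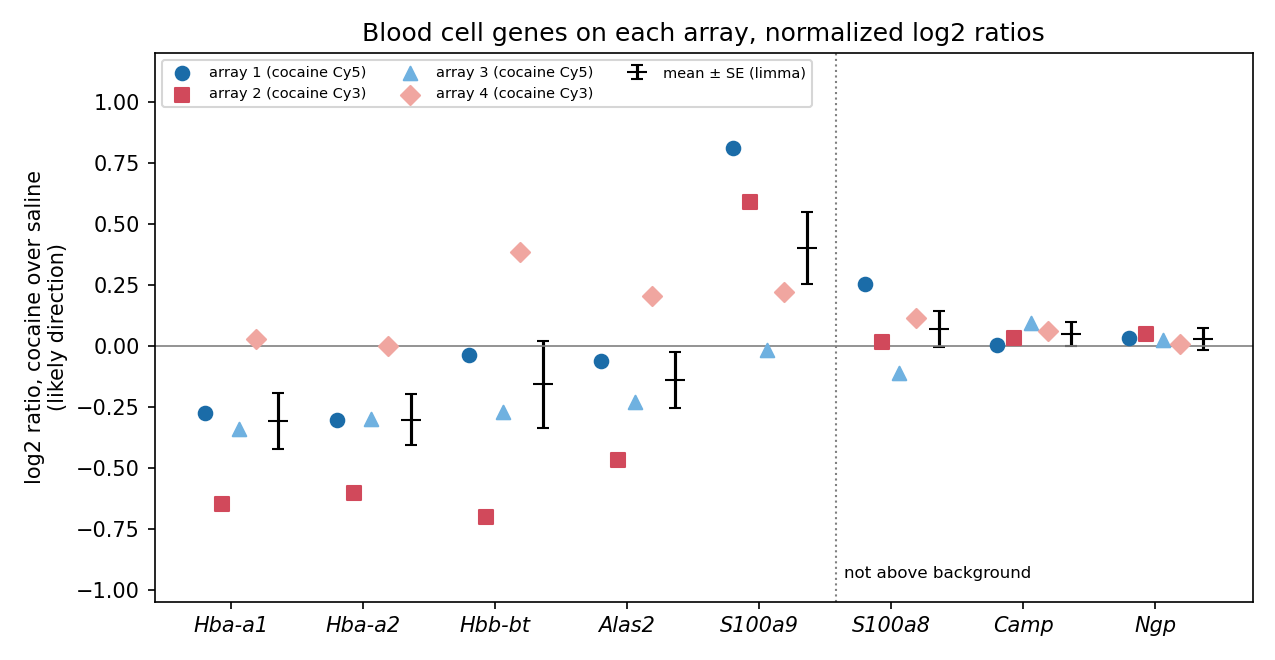
Normalized log2 ratios, cocaine over saline in the likely direction (y axis), of 7 member genes and Hbb-bt (x axis), with a symbol for each of 4 arrays and the mean with its SE from limma in black. On array 2 all 4 red cell genes stand at or below -0.47, and S100a9 stands at 0.59 there, while Camp and Ngp stay close to 0.

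Beta globin followed the order of the arrays with a wider range. Hbb-bt, an adult beta globin gene of the C57BL/6J reference assembly, had log2 ratios of -0.04, -0.70, -0.27 and 0.39 on arrays 1 to 4, each the mean of 4 spots. Its spots spanned -0.90 to -0.41 on array 2 and 0.16 to 0.67 on array 4, so the sign held within both arrays. The mean was -0.16 (SE 0.18, n = 4 arrays; limma adjusted p 0.999). The spread between arrays exceeded the mean difference. Its probes may also bind transcripts of Hbb-bs, a close copy.

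Embryonic and theta globins had means near 0. Hbb-y, an embryonic beta-like chain, had 0.03, -0.13, 0.03 and 0.20 on arrays 1 to 4, and Hbq1b, a theta globin, had 0.16, -0.20, -0.09 and 0.26. In both, array 2 was the lowest and array 4 the highest, as in 29.2% of genes above background. Array 2 minus array 4 was -0.46 for Hbq1b and -0.33 for Hbb-y. The sizes lay at the 90.8th and 79.5th percentiles of genes above background. Hbb-bh1, another embryonic beta-like chain, had a mean of -0.01 (SE 0.05) with 1 of 2 spots above background. Its array 2 minus array 4 was -0.02, at the 7.89th percentile. Hba-x and Hbq1a were not well above background.

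Alas2 was ordered like beta globin. It had log2 ratios of -0.06, -0.47, -0.23 and 0.20 on arrays 1 to 4, with a mean of -0.14 (SE 0.12, n = 4 arrays), 1.10-fold lower, and did not pass (limma unadjusted p 0.280, adjusted p 0.999). Without array 2 its mean was 0.0055. Alas2, Hbb-bt and Hba-a1 all had array 2 lowest and array 4 highest, which was also the case for 29.2% of genes above background. The normalization brings the means of the arrays of each orientation together, so arrays 2 and 4 tend to stand at opposite ends, as do arrays 1 and 3.

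The difference between arrays of 1 dye orientation is free of that tie. Array 2 minus array 4 was -0.68 for Hba-a1, -0.60 for Hba-a2, -0.67 for Alas2 and -1.09 for Hbb-bt. The sizes lay at the 97.7th, 96.4th, 97.7th and 99.7th percentiles of genes above background. Array 1 minus array 3 was 0.06, -0.002, 0.17 and 0.23 for the same genes, at the 26.2nd, 0.716th, 60.9th and 74.2nd percentiles. The red cell transcripts thus differed more between arrays 2 and 4 than between arrays 1 and 3. Whether the cocaine or the saline mouse of an array carried more of them relative to other mice cannot be read from a ratio. Over 4 arrays the SD was 0.277 for Hba-a1, 0.247 for Hba-a2, 0.283 for Alas2 and 0.455 for Hbb-bt, against a median of 0.106 over genes above background.

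**Figure D3:**
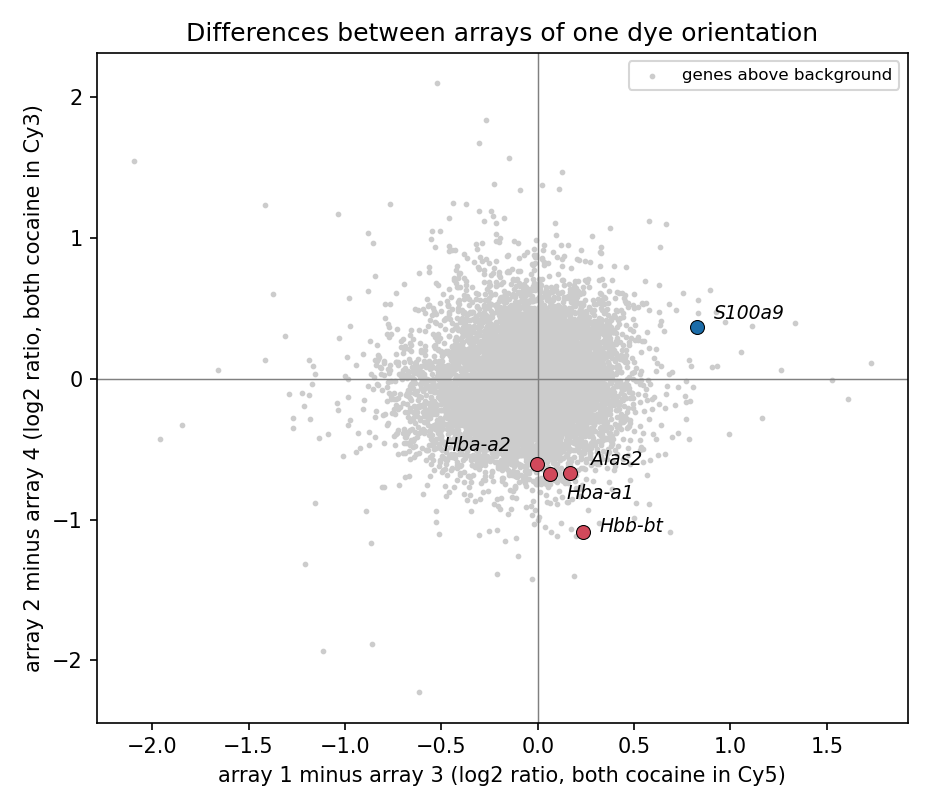
Array 1 minus array 3 (x axis) against array 2 minus array 4 (y axis), both as differences of normalized log2 ratios, for genes above background (grey), red cell genes (red) and S100a9 (blue). The red cell genes lie low on the y axis between -0.60 and -1.09 and between -0.002 and 0.23 on the x axis, and S100a9 lies at 0.83 on the x axis and 0.37 on the y axis.

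S100a9 was higher in cocaine mice on average and did not follow the red cell genes. It had log2 ratios of 0.81, 0.59, -0.02 and 0.22 on arrays 1 to 4, higher on 3 of 4. Arrays 1 and 2 were high, arrays 3 and 4 were closer to 0, and array 2, the lowest for globin, was the next to highest here. The mean was 0.40 (SE 0.15, n = 4 arrays), 1.32-fold, with a limma unadjusted p of 0.0398 and an adjusted p of 0.999, so it did not pass. Without array 1 the mean was 0.20. Array 1 minus array 3 was 0.83, at the 99.4th percentile of genes above background, and array 2 minus array 4 was 0.37, at the 83.5th. Its SD over arrays, 0.369, exceeded that of 98.6% of genes above background.

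The partner of S100a9 gave no comparable ratio. S100a8 had 0.25, 0.02, -0.11 and 0.11 on arrays 1 to 4, and was not well above background. Camp had 0.003, 0.03, 0.09 and 0.06, and Ngp had 0.03, 0.05, 0.02 and 0.008. Both had the same sign on 4 arrays, as did 14.8% of all genes, and at this signal they give no direction. Of 29 neutrophil markers measured, 8 were above background, namely S100a9, Mpo, Ctsg, Mmp9, Csf3r, Chil3, Pglyrp1 and Mcemp1. Ltf, Elane, Mmp8, Retnlg and Cxcr2 were among the 21 that were not. Mmp9 counted through 1 of its 11 spots, and its averaged dye bias of -0.0059 was below that of S100a8. Of the 4 neutrophil members S100a9 alone had a signal above the limit, and monocytes also express it.

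**Figure D4:**
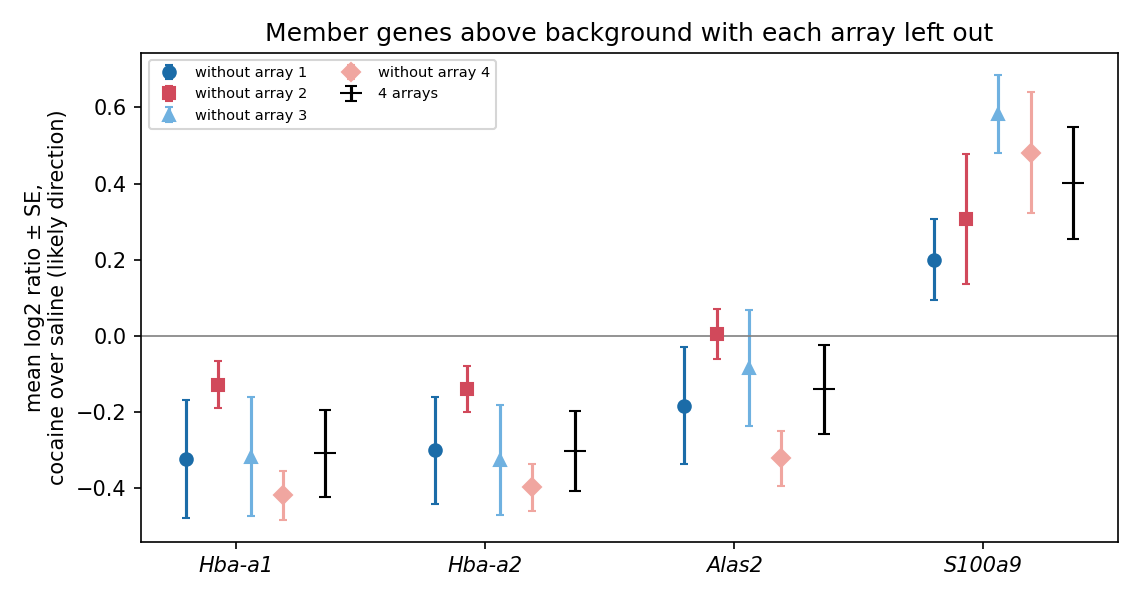
Mean log2 ratio with its SE, cocaine over saline in the likely direction (y axis), of the 4 member genes above background (x axis) after leaving out each array in turn, with the fit to 4 arrays in black. Hba-a1 ranges from -0.42 to -0.13, Alas2 from -0.32 to 0.0055 and S100a9 from 0.20 to 0.58. With an array left out, the normalization sets the array without a partner close to the mean of the remaining pair, so those SEs do not measure the full spread.

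Other erythroid genes were lower more often than higher, by small amounts. Of 23 measured apart from the globins and Alas2, 6 were higher and 17 lower, with a median log2 ratio of -0.03, against 9160 higher, 9927 lower and a median of -0.003 over all genes. Among the 15 above background 13 were lower, against 7392 of 13836 genes above background. Their median log2 ratio was -0.04, with -0.09 on array 2 and 0.0005 on array 4. Over all genes above background the median was -0.005. Which cells these transcripts came from was not tested. Gata1 counted among the 15 through 1 of its 10 spots. Array 2 was the lowest and array 4 the highest in 6 of these 15, against 29.2% of genes above background. Tal1, a transcription factor of blood and also of some brain neurons and vessels, went the other way at 0.20, 0.13, 0.22 and 0.32 on arrays 1 to 4, with a mean of 0.22 (SE 0.05; limma adjusted p 0.999). Bpgm, which makes the 2,3-bisphosphoglycerate of red cells, had a mean of -0.12 (SE 0.07). Epor, the erythropoietin receptor, and Rhd, a red cell surface protein, had -0.34 and -0.26 on array 2 and 0.12 and 0.18 on array 4. Car1, a red cell carbonic anhydrase, and Tfrc, the transferrin receptor, ran the other way, with 0.34 and 0.04 on array 2 and -0.24 and -0.14 on array 4. These 4 were chosen after their values were seen. Red cell membrane and transcription factor genes Epb42, Klf1, Rhag and Hemgn were not above background.

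Heme enzymes other than Alas2 are made in all cells. The genes of heme synthesis examined here also include mitochondrial transporters, of which Slc25a37 was also counted among the erythroid genes above. Of 11 measured without Alas2, all above background, 3 were higher and 8 lower, with a median of -0.04. Cpox, coproporphyrinogen oxidase, had a mean of 0.12 (SE 0.08), and Slc25a38, a mitochondrial glycine carrier, had -0.14 (SE 0.10). Genes that clear haemoglobin and heme were split, with 6 of 15 higher and 9 lower (median -0.02). Slc40a1, the iron exporter ferroportin, had a mean of 0.14 (SE 0.06), and Cd163, the scavenger receptor for haemoglobin, had 0.13 (SE 0.05). Neither list had a member at an unadjusted p under 0.05.

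Plac8, expressed in monocytes and other leukocytes, had the smallest unadjusted p of the genes in all 10 marker lists. Its log2 ratios were 0.36, 0.55, 0.68 and 0.49 on arrays 1 to 4. All 4 were above 0. The mean was 0.52 (SE 0.07, n = 4 arrays), 1.43-fold, with a limma unadjusted p of 4.75e-04 and an adjusted p of 0.999, so it did not pass over all features. Of 11 monocyte markers measured, 9 were higher (median 0.06), against 9160 of 19087 genes. Among the 8 above background 7 were higher, against 6444 of 13836 genes above background. Treml4, a receptor of monocytes and macrophages, had a mean of 0.14 (SE 0.07). Lyz2, lysozyme, had 0.17, 0.02, 0.007 and 0.14, and S100a4 had 0.13, -0.02, 0.04 and 0.19, both chosen after their values were seen. The monocyte markers Ly6c2 and F13a1 were each higher on 2 arrays and lower on 2. Vcan, with 1 of 4 spots above background, was lower on all 4 arrays. Ccr2, a defining receptor of blood monocytes, was not above background.

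Neutrophil, platelet and lymphocyte markers had list medians near that of all genes. Of 25 neutrophil markers other than the members 11 were higher and 14 lower (median -0.009), and among the 7 above background 6 were higher (median 0.04). These 7 include Mmp9, with 1 of 11 spots above the limit. Pglyrp1, a granule peptidoglycan-binding protein, had a mean of 0.10 (SE 0.05), and Ctsg, cathepsin G, had 0.14 (SE 0.09). Of 11 platelet markers 5 were higher (median -0.001), with Pf4, platelet factor 4, at 0.17 (SE 0.09) and the integrin Itgb3 at 0.07 (SE 0.06). The platelet median of genes above background was -0.10 on array 2 and 0.10 on array 4. Of 19 lymphocyte markers 9 were higher (median -0.004), 7 were above background, and Gzma and Cd8b1, with the smallest p, were not.

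Vessel and microglia markers had medians near 0. Of 29 endothelial and mural markers 17 were higher (median 0.009), and their median on array 2 was 0.06, where Hba-a1 stood at -0.65. Mfsd2a, a lipid transporter of the blood-brain barrier, had a mean of -0.28 (SE 0.05; limma adjusted p 0.999), and Kcnj8, a pericyte potassium channel, had 0.11 (SE 0.05). Microglia markers were split, with 9 of 18 higher (median 0.0009). Among them were Ptprc, the leukocyte antigen CD45, at 0.12 (SE 0.06) and Tmem119, a microglial surface protein, at -0.17 (SE 0.09). Of 16 pallidal neuron markers 5 were higher (median -0.01), with Elfn1 at -0.09 (SE 0.05) and Npas1, a transcription factor of pallidal neurons, at -0.12 (SE 0.06). The pallidal median above background was 0.09 on array 2 and -0.08 on array 4, the reverse of the order of the red cell members, and its part in the globin ratios was not tested.

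**Figure D5:**
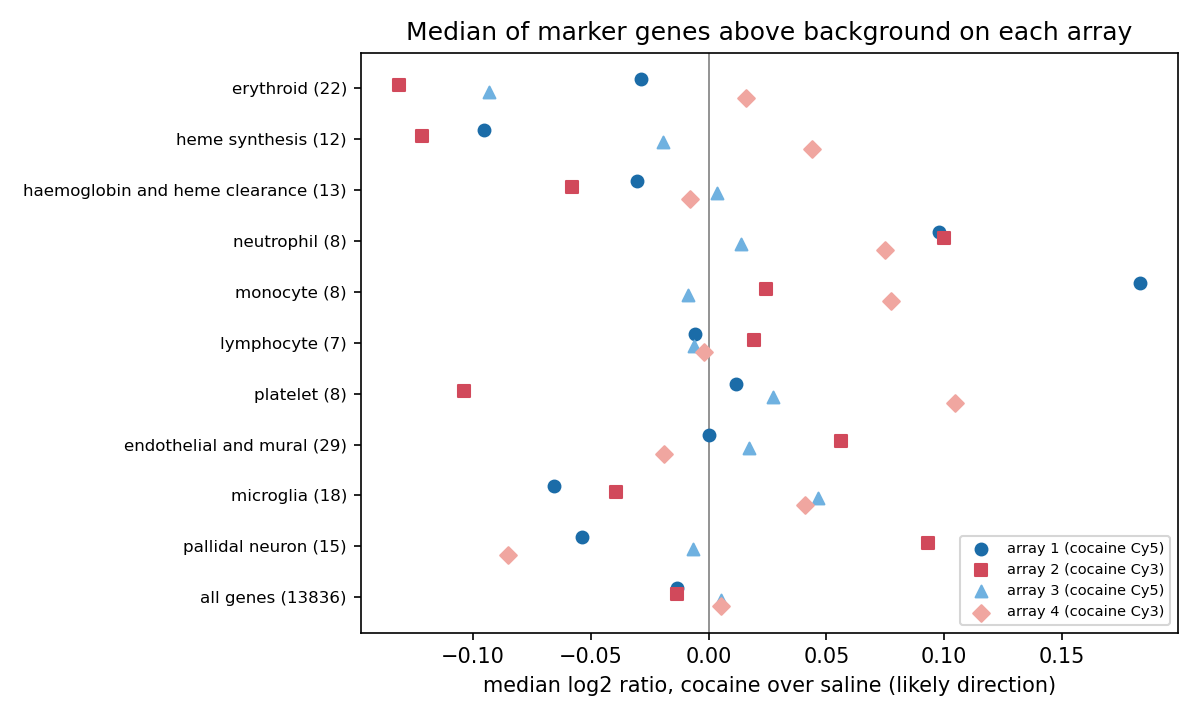
Median log2 ratio, cocaine over saline in the likely direction (x axis), of the genes above background in each marker list (y axis, number of genes in parentheses), with a symbol for each of 4 arrays. The erythroid and neutrophil lists include the members themselves, and the erythroid median is lowest on array 2 at -0.13, and the monocyte and neutrophil medians are at or above -0.009 on each array.

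Genes with ratios most like alpha globin were sought over the 4 arrays among 13832 genes above background, by the root mean square difference from the mean of Hba-a1 and Hba-a2. Trim29, a tripartite motif protein best known in epithelia, was the nearest at 0.0178. Each alpha globin stood at 0.0174 from the mean of both. That distance is set by their difference from each other, so it is no yardstick for another gene. Trim29 had log2 ratios of -0.31, -0.61, -0.30 and -0.0009 on arrays 1 to 4. Its averaged dye bias of 0.404 was well below that of alpha globin. Paqr6, a membrane progesterone receptor, followed at 0.0962, then Nudt8 at 0.0978, Rasal1, a Ras GTPase-activating protein, at 0.102 and Anp32a, a nuclear phosphoprotein, at 0.113. Alas2 stood at 0.172, with 77 genes nearer, Hbb-bt at 0.229 with 442 nearer, and S100a9 at 0.839 with 13806 nearer. The median over these genes was 0.385. Likeness over 4 arrays that share the normalization is a description and says nothing of function.

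The dyes themselves differed for the same transcripts, fitted on the deposited values. The deposited log2 ratios of Hba-a1 were 0.81, -1.68, 1.03 and -1.42 on arrays 1 to 4, so the dye orientation set the sign. The dye coefficient, the difference from the midpoint of both orientations, was 1.23 (SE 0.08) for Hba-a1 and 1.24 (SE 0.08) for Hba-a2, both with a limma adjusted p of 0.00103. It was 1.29 (SE 0.13) for Hbb-bt, 0.83 (SE 0.07) for Alas2 and 0.97 (SE 0.17) for S100a9, with adjusted p of 0.00168, 0.00137 and 0.00712. S100a9 had deposited values of 1.63, -0.19, 1.09 and -0.99, and the largest SE of the members. Ngp passed on the negative side at -0.26 (SE 0.06; adjusted p 0.0173), and S100a8 and Camp did not pass. Ngp was not above background, and the averaged bias of all spots had its mode at -0.167 (SD of dim spots 0.095). Its coefficient can therefore not be read as a dye effect on an Ngp transcript. In all 5 of 7 members passed, against 66.3% of features. For each member the coefficient is the same number as the averaged dye bias used to call a signal. That the members called above background passed is therefore no separate result.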

How the data were processed

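Gene expression was measured on Agilent 2-colour arrays from 75 ng of total RNA per channel, per the labels' protocols, and Agilent Feature Extraction is named in the submitters' processing notes. The authors deposited 1 log2 ratio per spot and array, with 0 value columns left unused. The scale was read from the values: on array 3, 99.0% of 5000 sampled values were logs of whole-number ratios within 2e-13 when read as log2, against 1.38% as log10. No intensities were used. The columns were neither centred nor dye-normalized, as their medians and dye bias show, so the values were normalized here.

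Spots at 0 on all arrays (202 of 45220) were left out. Of the probes 33653 had 1 symbol, 56 several and 11511 none, and 33517 matched a RefSeq gene of GRCm38.p6 by identifier with 0 symbols changed. Loess (span 0.3) normalized each array on its spots' dye bias, taken as the average of both orientations. Spots of a gene were averaged, which gave 30452 features, and limma 3.58.1 in R 4.3.3 fitted a treatment and a dye term with eBayes (5.21 degrees of freedom) and Benjamini-Hochberg adjustment over all features. The dye effect was fitted on deposited values. The steps were run on simulated data with known changes, all larger than the mean of any member. How often changes of the members' size would be called was not tested.

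Members and marker lists were chosen with earlier results of these data known. Named genes are the members, other globins, the 2 genes of each list with the smallest p and the 5 genes nearest to alpha globin. Whether arrays came from separate litters is not given in the labels, and p-values measure the spread between these arrays. Alternatives changed the normalization, loess span, dye term, background filter, averaging, eBayes setting and arrays used.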

Additional observations from a re-analysis of the deposited data

How the results depend on the processing

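Each array sets a cocaine mouse against a saline mouse, so the fit is already made within such pairs and no further replicate block was added. The count of features past the threshold was 0, and 18 with each array centred on its median, where eBayes gave every feature the same SE. None of these was a member, and 0 members passed under any alternative. At an unadjusted p under 0.05 the count was 529 features, 623 with that centring, 392 with no normalization, 763 with a trended and robust eBayes, 329 with spots above background alone, 1900 with no dye term and 76 with each array normalized on the other 3. It ranged from 295 without array 1 to 2668 without array 4. Leaving out single arrays gave ranges of -0.42 to -0.13 for Hba-a1, -0.40 to -0.14 for Hba-a2, -0.32 to 0.0055 for Alas2 (its sign turned without array 2), 0.20 to 0.58 for S100a9, -0.024 to 0.17 for S100a8 (its sign turned without array 1), 0.03 to 0.07 for Camp and 0.0064 to 0.04 for Ngp. In such a fit an array with no partner of its orientation weighs as much as the remaining pair together, and the cause of these turns was not tested. In the other alternatives each of the 7 members kept its sign, with Hba-a1 between -0.32 and -0.31 and S100a9 between 0.38 and 0.40. With each array normalized on the dye bias of the other 3, chosen after seeing the data, Hba-a1 had -0.22, -0.82, -0.33 and 0.08 on arrays 1 to 4 and S100a9 had 0.95, 0.68, -0.20 and 0.14.

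The median over the 7 members was 0.03, and -0.22 with spots above background alone or with the members above background alone (the latter choice made after seeing the data), since these keep 4 members and drop S100a8, Camp and Ngp. It ranged from -0.024 to 0.03 without single arrays. The median SD over members was 0.247, and 0.740 with centred arrays and 0.970 with no normalization, both of which keep the dye effect in it. It ranged from 0.0444 to 0.197 without single arrays. There the normalization sets an array with no partner of its orientation close to the mean of the remaining pair. The SD of Hba-a2, for example, was 0.0055 without array 2, so these SDs do not measure the spread between arrays. The dye effect passed in 20178 features, and in 12604 to 18963 without single arrays. Spots above background alone gave no value for S100a8, Camp and Ngp.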
